A study of Arabidopsis thaliana with 12 samples.

Results

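The plastid genome of Arabidopsis thaliana encodes part of the photosynthetic apparatus and part of the machinery that expresses it. On Affymetrix ATH1 arrays, 69 plastid genes were measured by probe sets that name a single gene, out of 13356 genes tested. Members were chosen by the locus tag of the plastid genome in the RefSeq gene table, and the table lists 78 distinct plastid gene symbols. A total of 43 members encode photosynthetic proteins (psa, psb, pet, atp and ndh genes and rbcL), 19 encode RNA polymerase subunits or ribosomal proteins (rpo, rps and rpl genes), and 7 have other functions.

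The 12 arrays came from leaves of 5-week-old, soil-grown plants of accession Col-0 with no transgene or mutation named, 3 arrays in each of 4 groups. Leaf 13 was taken from unwounded plants, or 1 h after the apical 40% of leaf 8 on the same plant had been wounded. Leaf 8 was taken from plants with a platinum wire in the petiole and no current, or 1 h after 40 µA had been passed through such a wire for 10 s. The wounding comparison therefore concerns an undamaged leaf at a distance, and the current comparison concerns the leaf that received the current. Nothing in the labels ties a replicate to its own plant or pool, and all p-values here therefore reflect variation among the arrays as deposited, part or all of which may be technical.

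Chloroplasts transcribe their genome with a bacterial-type RNA polymerase, whose core subunits are the rpo products, and with phage-type polymerases encoded in the nucleus. Most plastid genes lie in clusters that are transcribed together, and the long precursors are then cut, spliced and edited. Transcript ends and half-lives differ between the genes of one cluster, so that a cluster does not give equal amounts of each mature RNA. Each photosynthetic complex also holds subunits encoded in the nucleus. Plastid mRNAs lack the stable poly(A) tails of nuclear mRNAs, while the kit used for labelling starts cDNA synthesis from oligo(dT). The values below are thus the part of the plastid RNA that this labelling captured.

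All values are log2 RMA expression values, so a difference of 1 is a factor of 2. Mean levels of the members over the 12 arrays ran from 2.01 to 12.69 with a median of 8.53, against a median of 4.35 over all genes. In photosystem I the highest mean level was that of psaB (11.82) and the lowest that of psaC (6.89). In photosystem II these were psbM (11.39) and psbN (6.38), in the cytochrome b6f complex petB (11.39) and petG (3.09), in the ATP synthase atpE (12.69) and atpI (3.54), and in the NDH complex ndhI (11.99) and ndhF (2.01). Among rpo genes they were rpoA (10.91) and rpoB (2.43), among rps genes rps4 (11.02) and rps14 (3.25), and among rpl genes rpl36 (10.13) and rpl20 (4.40). Probe sets differ in their response, so these levels do not rank the amounts of the transcripts. RpoB and ndhF lay among the dimmest 25% of all genes, and atpI, rps14, petG and petD were also among the dimmest 50%, where little signal stands above background and folds are understated.

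Arrays of one group correlated at 0.991 to 0.996 over all genes and at 0.980 to 0.997 over the plastid genes, as Pearson's r across genes. Of the leaf markers listed, 3 of 5 were measured, and RCA, which encodes Rubisco activase, stood at 12.77 to 12.99. The root hair marker EXP7 stood at 2.97 to 3.52. In each group a single array held most of the lowest plastid values. Unwounded replicate 3 was the lowest of its group for 41 of 69 genes, wounded replicate 3 for 56, no-current replicate 3 for 48 and current replicate 1 for 60. Counts of genes that passed are given below with and without single arrays.

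**Figure D1:**
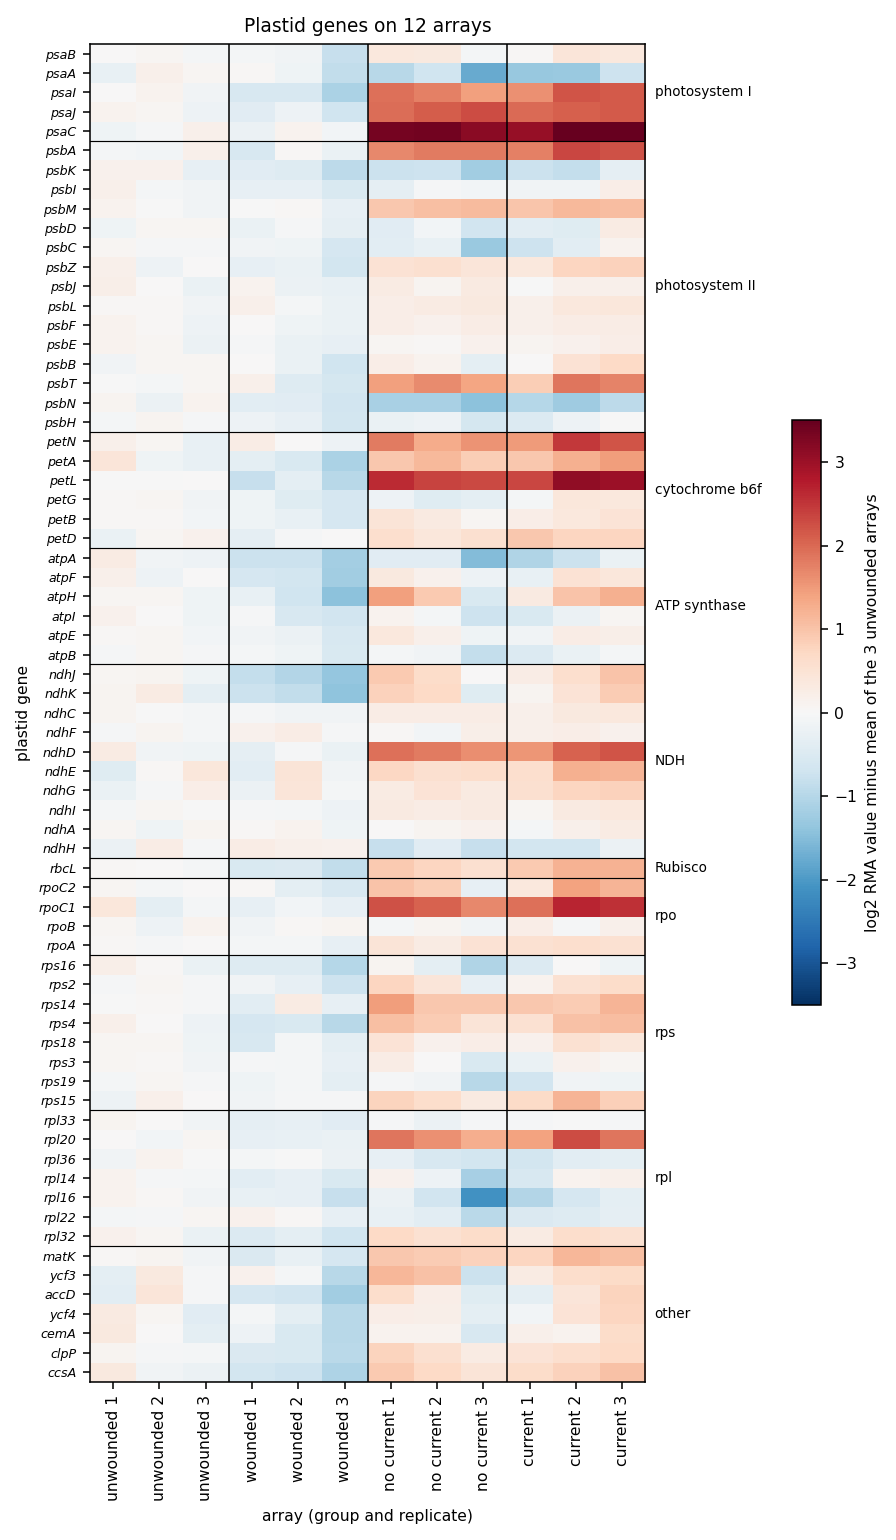
Log2 RMA value of each of the 69 plastid genes (rows, by gene group and then map order) on each of the 12 arrays (columns), minus the gene's mean over the 3 unwounded arrays. Wounded replicate 3 is the lowest of its group for 56 genes, and the leaf 8 arrays stand above leaf 13 for genes such as psaC and petL and below it for psaA and psbN. The colour scale saturates for the highest psaC values.

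Wounding of leaf 8 was followed by lower plastid transcript levels in leaf 13. Of the 69 genes, 17 fell and none rose at an adjusted p of 0.05 (limma with Benjamini-Hochberg adjustment over all 13356 genes, two-sided), which is 24.6% of the members beside 8.42% of all genes that fell and 5.81% that rose. The unadjusted test at the same threshold gave 26 lower and 0 higher, beside 15.2% of all genes lower and 8.6% higher. The mean was lower in wounded than in unwounded leaves for 65 of 69 genes, beside 7725 of all 13356 genes. The median log2 change was -0.31, against -0.03 over all genes. The falls were modest, since only ndhJ and ndhK passed a factor of 2. All 3 wounded arrays lay below all 3 unwounded arrays for 35 genes and above them for 0, while 19.7% of all genes lay below and 10.6% above in this way. In whole leaves, fewer cells or plastids of a kind and less RNA in each cannot be told apart.

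The size of the wound result depended on single arrays. Without wounded replicate 3, only 4 genes fell, beside 5.88% of all genes, and 59 of 69 means were lower, with a median change of -0.20. The other 13 calls were then lost, and of these psaI (adjusted p = 0.0574), rpl32 (0.0760), rps4 (0.0819) and atpF (0.0828 in limma) came closest among the genes named by rule. NdhK (0.142), atpA (0.168), petA (0.191) and psbK (0.226) lay farther off in limma. Without unwounded replicate 1, 5 genes fell (6.48% of all genes), and without unwounded replicate 2, 8 fell (5.65% of all genes). The calls of rbcL, ndhJ, ccsA and clpP held in each of these fits and under all 15 alternatives that were run, with adjusted p-values from 1.29e-04 to 0.0237.

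RbcL encodes the large subunit of Rubisco, the enzyme that fixes carbon dioxide. Its log2 values were 9.03, 9.01 and 8.92 in the unwounded leaves and 8.46, 8.49 and 8.13 in the wounded plants' leaves. The groups were well apart, with replicate 3 the lowest on both sides. The change was -0.63 (SE 0.12, n = 3 and 3), a 1.55-fold fall with an adjusted p of 0.00240 in limma.

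NdhJ encodes a subunit of the NDH complex, which returns electrons from photosystem I to the plastoquinone pool. Its values were 8.42, 8.44 and 8.18 in unwounded and 7.51, 7.31 and 6.98 in wounded arrays. No value overlapped, and the fall of 2.12-fold (log2 change -1.08, SE 0.22, adjusted p = 0.00280 in limma) was the largest among the 69 genes. NdhK, its neighbour, read 7.60, 7.79 and 7.16 in unwounded and 6.75, 6.65 and 6.11 in wounded arrays. This is a change of -1.01 (SE 0.29, adjusted p = 0.0300 in limma), and the call was lost in 5 of 15 alternatives. NdhC, transcribed in the same cluster, stayed at 10.64 ± 0.07 (SD, n = 3) and 10.54 ± 0.05, with a change of -0.11 (SE 0.08, adjusted p = 0.523 in limma). It was added after its values were seen. The other NDH genes had changes from -0.20 for ndhD to 0.20 for ndhH, none past the threshold, and the median over the 10 NDH genes was -0.06.

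In the ATP synthase, 2 of 6 genes fell. AtpA, the alpha subunit of the catalytic head, read 10.85, 10.44 and 10.38 in unwounded and 9.82, 9.81 and 9.37 in wounded arrays, with a change of -0.89 (SE 0.27, adjusted p = 0.0404 in limma). Its groups did not overlap, but the call was lost in 8 of 15 alternatives. AtpF, a subunit of the membrane part encoded beside it, changed by -0.80 (SE 0.20, adjusted p = 0.0142 in limma). AtpB, the beta subunit, had the smallest change of this group at -0.25 (adjusted p = 0.488 in limma), and the group median was -0.62.

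The cytochrome b6f complex links both photosystems, and 2 of its 6 measured genes fell. PetL, a small subunit, read 4.62, 4.63 and 4.66 in unwounded and 3.83, 4.31 and 3.68 in wounded arrays. All wounded values were lower, by a mean of 0.70 (SE 0.18, adjusted p = 0.0187 in limma). They also lay below the median of 4.35 over all genes, a low signal where folds are understated. PetA, which encodes cytochrome f, changed by -0.66 (SE 0.20, adjusted p = 0.0375 in limma). The calls of petL and petA were lost in 5 and 6 of 15 alternatives, for petA with median centring and the robust variance model among them. PetN, another small subunit, had a change of 0.03.

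Of 5 photosystem I genes, psaI and psaJ fell, both encoding small membrane subunits. PsaI read 7.79, 7.92 and 7.67 in unwounded and 7.23, 7.23 and 6.67 in wounded arrays, a change of -0.75 (SE 0.18, adjusted p = 0.00963 in limma). The groups did not overlap, and wounded replicate 3 was far below the other two; without it the change was -0.56 and the call was lost (adjusted p = 0.0574 in limma). PsaC, the subunit that carries iron-sulfur clusters, had a change of -0.06. Of 15 photosystem II genes, psbK (-0.59, adjusted p = 0.0477 in limma) and psbN fell, and the median was -0.29. The calls of psbK and psaJ were each lost in 7 of 15 alternatives, both with median centring and psbK also with quantile normalization. PsbA, which encodes the D1 reaction centre protein known for its fast turnover in light, had a change of -0.25 (SE 0.16, adjusted p = 0.399 in limma), and its values overlapped between the groups. PsbL had the smallest change of the photosystem II genes, at -0.04.

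Among the 19 genes of the expression machinery, rps4, rpl32 and rpl33 fell, while 0 of 4 rpo genes did. Rps4, a protein of the small ribosomal subunit, read 10.94, 10.78 and 10.59 in unwounded and 10.18, 10.24 and 9.81 in wounded arrays. The groups were apart, with a change of -0.69 (SE 0.18, adjusted p = 0.0142 in limma). The changes of the rpo genes, which encode the plastid polymerase core, ran from -0.28 for rpoC2 to about 0 for the dim rpoB. Rps15 and rpl22 had changes of -0.06 and -0.03.

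The photosynthesis genes and the genes of the expression machinery had medians of -0.30 and -0.26 after wounding, with 11 of 43 and 3 of 19 past the threshold. Removing each array in turn gave -0.40 to -0.16 for the first group and -0.31 to -0.20 for the second. The median over the 7 other genes was -0.57, and 3 of them fell. CcsA, needed to attach haem to cytochromes of the c type, read 10.54, 10.07 and 10.00 in unwounded and 9.55, 9.48 and 9.11 in wounded arrays. The change was -0.82 (SE 0.17, adjusted p = 0.00269 in limma), with no overlap. ClpP, the proteolytic subunit of the Clp protease, changed by -0.65 (SE 0.14, adjusted p = 0.00378 in limma). Its values were 10.65, 10.52 and 10.50 in unwounded and 10.06, 10.03 and 9.63 in wounded arrays. MatK, a splicing factor for group II introns, was the third, at -0.46 (adjusted p = 0.0188 in limma). AccD, a subunit of the acetyl-CoA carboxylase of fatty acid synthesis, had a change of -0.83 that missed the threshold (SE 0.30, adjusted p = 0.0846 in limma). Ycf3, a photosystem I assembly factor, had the smallest change of these 7, at -0.30. The named genes psbN, psaJ, rpl33 and matK complete the 17 and were added after their values were seen.

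**Figure D2:**
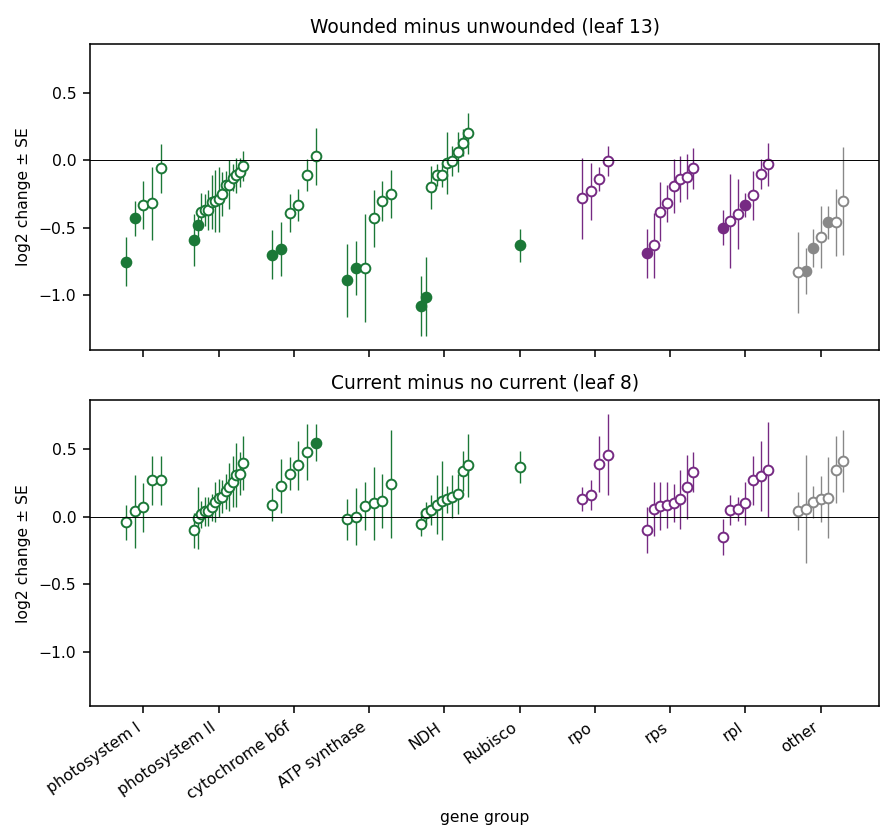
Log2 change ± SE of each of the 69 plastid genes, by gene group, for wounded minus unwounded leaf 13 (upper panel) and current minus no current in leaf 8 (lower panel); each estimate rests on 3 against 3 arrays. Filled points passed the threshold, green marks photosynthesis genes, purple rpo, rps and rpl genes and grey the others. In the upper panel 65 of 69 points lie below 0, and in the lower panel 62 of 69 lie above it.

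Genes encoded outside the plastid were read on the same arrays. Of 11 mitochondrion-encoded genes, 0 passed the threshold after wounding in limma (1 was lower at an unadjusted p of 0.05), and their median change was -0.005. The list for photosystem and electron transport subunits held 40 nuclear genes, among them RCA for Rubisco activase, which is no such subunit. Of these 40, 8 were measured, RCA included, and 0 passed in limma, with a median of -0.11 and 1 lower at the unadjusted threshold. NDHL, a nuclear-encoded NDH subunit, had the lowest of these changes (-0.24, adjusted p = 0.132 in limma). In all, 7 of the 8 changes were negative. For 4 of the 8, all wounded arrays lay below all unwounded arrays, as for 1 of the 11 mitochondrial genes. Of 3 nuclear antenna genes, 2 lay below and 1 above in this way. Over all genes, 19.7% lay below and 10.6% above. The difference in log2 signal between probe sets at opposite ends of the same control transcript, a sign of RNA quality, overlapped between wounded and unwounded arrays for actin (3.94 ± 0.21 and 4.03 ± 0.18, SD, n = 3) and GAPDH (1.27 to 1.59 and 1.18 to 1.39). For ubiquitin it did not, at 1.39 to 1.47 and 1.49 to 1.69, and the part of this in the result was not tested.

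**Figure D3:**
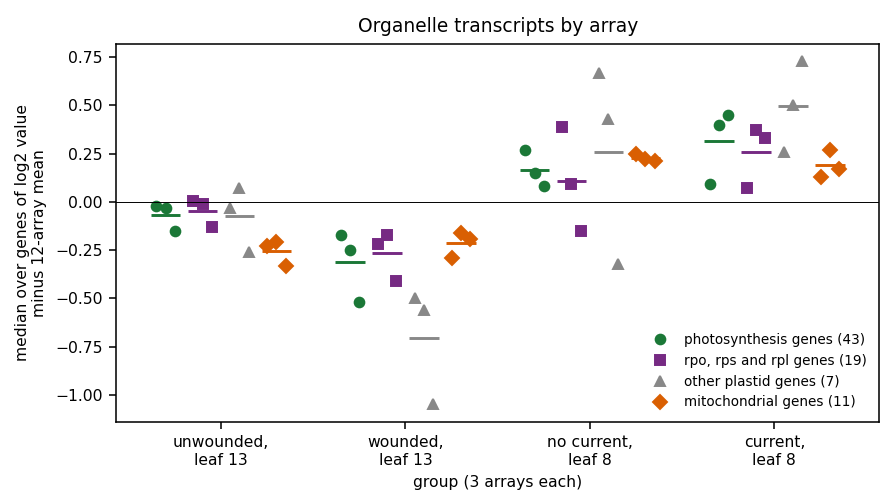
Median over the genes of each class of the log2 value minus the gene's mean over all 12 arrays, for each array (points, in replicate order from left to right within a group) with the group mean (bars). The 43 photosynthesis and the 19 rpo, rps and rpl genes lie lowest in the wounded group, at -0.52 and -0.41 in replicate 3, while the 11 mitochondrial genes lie between -0.33 and -0.16 in both leaf 13 groups and between 0.13 and 0.27 in leaf 8.

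Passing current through leaf 8 was followed by few measurable changes in its plastid transcripts. Only petG rose, and 0 genes fell, in limma; this is 1.45% of the members beside 2.38% of all genes that rose and 1.58% that fell. At an unadjusted p of 0.05, 6 genes were higher and 0 lower, which is 8.7% of the members beside 6.24% of all genes higher and 7.92% lower. For 4 genes every array with current lay above every array without, and for 0 below, beside 7.34% of all genes higher and 9.59% lower in this way. The 95% intervals of 66 of 69 genes lay within a factor of 2 in both directions, and the bounds over all members ran from -0.80 to 1.11 on the log2 scale. The median change was 0.13, the same for the photosynthesis and for the expression genes, against -0.02 over all genes. Without single arrays the median ran from 0.03 to 0.27 for photosynthesis genes and from -0.08 to 0.23 for expression genes. The mean was higher with current for 62 of 69 genes, beside 5909 of all 13356 genes. Without no-current replicate 3 it was higher for only 39 of the 69 (median 0.05), and without current replicate 3 for 46 (median 0.04). It was higher for 66 without current replicate 1 (median 0.25), 63 without no-current replicate 1 (median 0.23), 62 without no-current replicate 2 (median 0.20) and 58 without current replicate 2 (median 0.10). The end-to-end difference in ubiquitin signal was 1.59 to 1.76 with and 1.88 to 1.95 without current, and its part in these values was not tested.

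PetG, a small subunit of the cytochrome b6f complex, read 3.02, 2.79 and 2.88 without and 3.14, 3.61 and 3.59 with current. The ranges did not touch, although current replicate 1 came close to the controls. The change was 0.55 (SE 0.14, adjusted p = 0.0359 in limma), a 1.46-fold rise at a low signal. This call was lost in 8 of 14 alternatives, among them quantile normalization and 5 of the 6 fits without a single array. Without current replicate 1 the count was 5, beside 3.02% of all genes that rose, and without any other single array of this comparison it was 0.

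The other b6f genes had changes from 0.09 for petB upwards, and the group's median of 0.35 was the highest of the groups with more than 1 gene. RbcL read 9.91, 9.74 and 9.56 without and 9.90, 10.21 and 10.20 with current. The ranges overlapped through current replicate 1, and the change of 0.37 did not pass (SE 0.12, adjusted p = 0.142 in limma). PsbA read 11.77, 11.89 and 11.91 without and 11.83, 12.43 and 12.30 with current, a change of 0.32 (adjusted p = 0.389 in limma). ClpP and accD had changes of 0.04 and 0.14. In the remaining groups the extremes were psaI (0.27) and psaJ (-0.04), psbB (0.40) and psbJ (-0.10), atpH (0.24) and atpE (-0.02), and ndhE (0.38) and ndhI (-0.05). Among genes of the expression machinery they were rpoC2 (0.46) and rpoA (0.13), rps15 (0.33) and rps14 (-0.10), and rpl16 (0.35) and rpl32 (-0.15). None of these passed the threshold.

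The difference of the responses, current minus wound, was tested as an interaction in the same fit, and these responses share no arrays. A total of 5 genes passed with a higher current response, 7.25% of the members beside 1.33% of all genes, and 0 with a lower one, beside 1.52%. The estimate was positive for 67 of 69 genes, beside 7060 of all 13356 genes, with a median of 0.43 against 0.01 over all genes. The medians were 0.42 for photosynthesis genes and 0.39 for rpo, rps and rpl genes. The count was 1 without wounded replicate 3 (0.779% of all genes) and 9 without current replicate 1 (1.56%). Leaving out unwounded replicate 1 or 2, no-current replicate 2 or 3, or current replicate 3 gave 2 each, beside 0.719% to 0.981% of all genes. Unwounded replicate 3, wounded replicate 2 or current replicate 2 gave 3 each, beside 0.846% to 1.38%. The count was 5 without wounded replicate 1 (1.69%) and 7 without no-current replicate 1 (1.26%).

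RbcL differed by 1.00 (SE 0.18, adjusted p = 0.00635 in limma) and held under all 20 alternatives, with adjusted p-values of 0.00181 to 0.0219. PetL differed by 1.07 (SE 0.26), psaI by 1.02 (SE 0.25), ccsA by 0.95 (SE 0.23) and petG by 0.94 (SE 0.19), with adjusted p-values of 0.0400, 0.0437, 0.0411 and 0.0163 in limma. PsaI was lost in 10 of 20 alternatives, quantile normalization among them, petL in 9 of 20, ccsA in 8 of 20 and petG in 1 of 19. In all but petG, the fall after wounding had passed and the change after current had not. For petG the reverse held, with a change of -0.39 after wounding (adjusted p = 0.0767 in limma). NdhJ had the highest estimate, 1.17 (SE 0.31), and missed the threshold (adjusted p = 0.0616 in limma). At the other end stood ndhH, with a difference of -0.02, the dim ndhF, with -0.002, and psbJ and rps14, with 0.01 and 0.02. NdhH, psbJ and rps14 lay so close to 0 that another scaling of the arrays turned their sign.

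Across the 69 plastid genes the change after wounding did not track the change after current, with Pearson's r of -0.04 and Spearman's rho of -0.09. Over all 13356 genes these values were 0.71 and 0.43. Genes on the same arrays are not independent, so these are descriptions. The plastid changes after current ran only from -0.15 to 0.55, with a median SE of 0.17, against -2.84 to 3.51 over all genes. Changes so small beside their error can hold a correlation near 0, and the part of this was not tested. The low value is thus not shown to be a trait of plastid genes. Of the plastid genes, 58 were lower after wounding and higher after current, 7 lower in both and 4 higher in both. Of all 13356 genes these counts were 2581, 5144 and 3328. These signs include the many changes that did not pass a test.

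**Figure D4:**
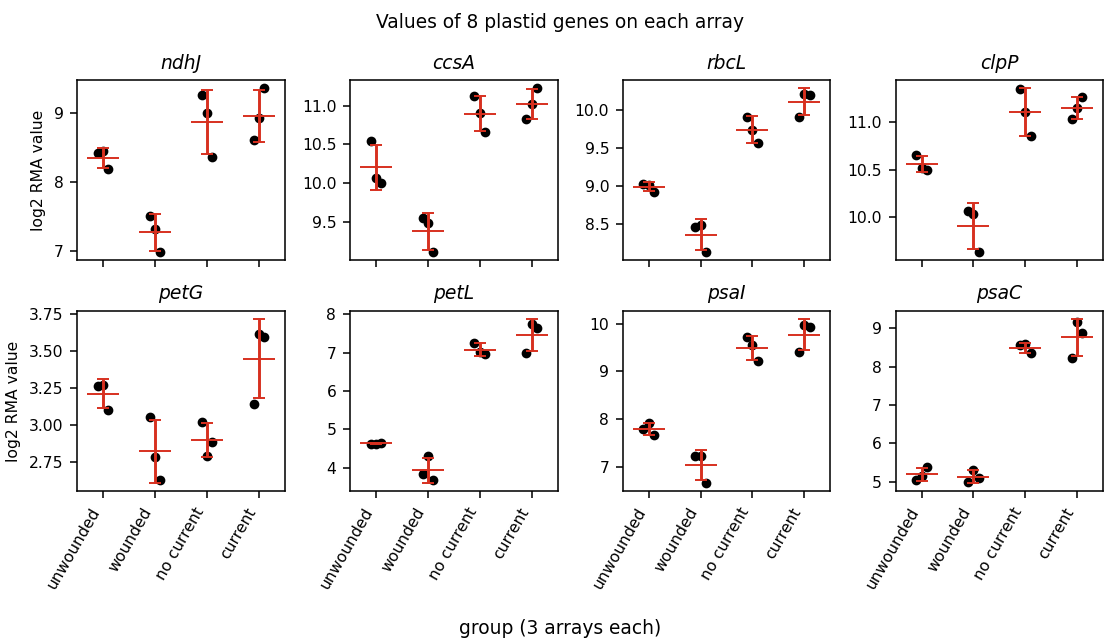
Log2 RMA values of 8 plastid genes on each array (points, 3 per group), with the group mean and SD (bars); the vertical axes differ between panels and do not start at 0. In the wounded group all values of ndhJ, ccsA, rbcL, clpP, petL and psaI lie below the unwounded ones. PsaC differs between leaf 13 (4.99 to 5.38) and leaf 8 (8.23 to 9.16), and its values overlap between the groups of each leaf.

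More plastid genes passed the threshold between the control leaves of both experiments than in either treatment comparison. In wired leaf 8 without current, 26 plastid genes were higher and 8 lower than in leaf 13 of unwounded plants, which is 37.7% and 11.6% of the members beside 16.6% and 16.2% of all genes. The arrays did not overlap for 31 genes that were higher and 12 that were lower, beside 22.1% and 23.3% of all genes. Leaf position, the wire and the experiment differ together here and cannot be told apart. This comparison also shares its arrays with both treatment comparisons. Of the 34 calls, 27 held under every alternative run. The medians were 0.26 for the photosynthesis genes, with 16 higher and 5 lower, and 0.27 for the rpo, rps and rpl genes, with 7 higher and 3 lower.

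PsaC showed the largest difference. It read 5.04, 5.15 and 5.38 in unwounded leaf 13 and 8.55, 8.58 and 8.34 in wired leaf 8. The gap between the groups was many times the spread within them, at 3.30 on the log2 scale (SE 0.18, adjusted p = 4.16e-08 in limma), a factor of 9.84. PetL stood at 4.62 to 4.66 in leaf 13 and at 6.96 to 7.26 in leaf 8, higher by 2.44 (SE 0.18, adjusted p = 4.47e-07 in limma). PsaJ was higher by 2.11 and psaI by 1.71. NdhD, the membrane NDH subunit whose gene lies beside psaC, was higher by 1.79 (SE 0.16, adjusted p = 2.06e-06 in limma).

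PsbA read 10.01, 9.99 and 10.25 in leaf 13 and 11.77, 11.89 and 11.91 in leaf 8. The leaves did not overlap, and the difference was 1.78 (SE 0.16, adjusted p = 1.94e-06 in limma). PetN was higher by 1.56 and psbT, a small photosystem II subunit, by 1.49. RbcL was higher by 0.75 (SE 0.12, adjusted p = 3.25e-04 in limma), clpP by 0.55 and matK by 0.88. AccD (0.14), cemA (-0.10) and atpH (0.60) did not pass the threshold. Among the expression genes, rpoC1 was higher by 1.99 (SE 0.21, adjusted p = 6.23e-06 in limma), rpl20 by 1.58 and rps14 by 1.12, whereas rpoB had a difference of -0.03.

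Of the 8 genes that were lower in leaf 8, psbN differed most. It read 7.17, 6.86 and 7.19 in leaf 13 and 5.94, 5.94 and 5.63 in leaf 8, with a difference of -1.24 (SE 0.13, adjusted p = 8.75e-06 in limma). PsbN lies on the opposite strand within the psbB cluster. PsaA, a core protein of photosystem I, was lower by 1.15 (log2 difference -1.15, SE 0.27, adjusted p = 0.00378 in limma). Its values were 8.34, 8.79 and 8.67 in leaf 13 and 7.62, 7.90 and 6.83 in leaf 8. Rpl16 was lower by 1.00 in leaf 8 than in leaf 13 (adjusted p = 0.0380 in limma), on a wide spread of 8.81, 8.35 and 6.90 in the no-current arrays. Its call was lost in 7 of 15 alternatives, among them quantile normalization, no-current replicate 3 left out and each unwounded array left out. PsbK (-0.89), atpA (-0.78), ndhH (-0.68), rpl22 (-0.52) and rpl36 (-0.50) were the others, of which atpA was lost in 6 and rpl22 in 3 of 15 alternatives. The lowest rps gene was rps16, at -0.43, which did not pass.

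Genes of one cluster often moved apart between the control leaves. The clusters were taken from textbook knowledge after the data had been seen, and the order of genes from the RefSeq table. In the cluster that runs from ndhH to ndhD, 7 genes ranged from -0.68 for ndhH to 3.30 for psaC. PetL was at 2.44 while its neighbour petG was at -0.31 (adjusted p = 0.0953 in limma for petG), and psaJ at 2.11 while rpl33 was at -0.10. In the psaA cluster, psaA was at -1.15 and rps14 at 1.12. PetG and rps14 are among the dim genes named above, where folds are understated. PetL in unwounded leaf 13, at a mean of 4.64, was also near the median of 4.35 over all genes. The genes of the psbE cluster lay close together, between 0.09 and 0.29. After wounding the widest range was that of the ndhC cluster described above, 0.97, and after current no cluster spanned more than 0.43.

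**Figure D5:**
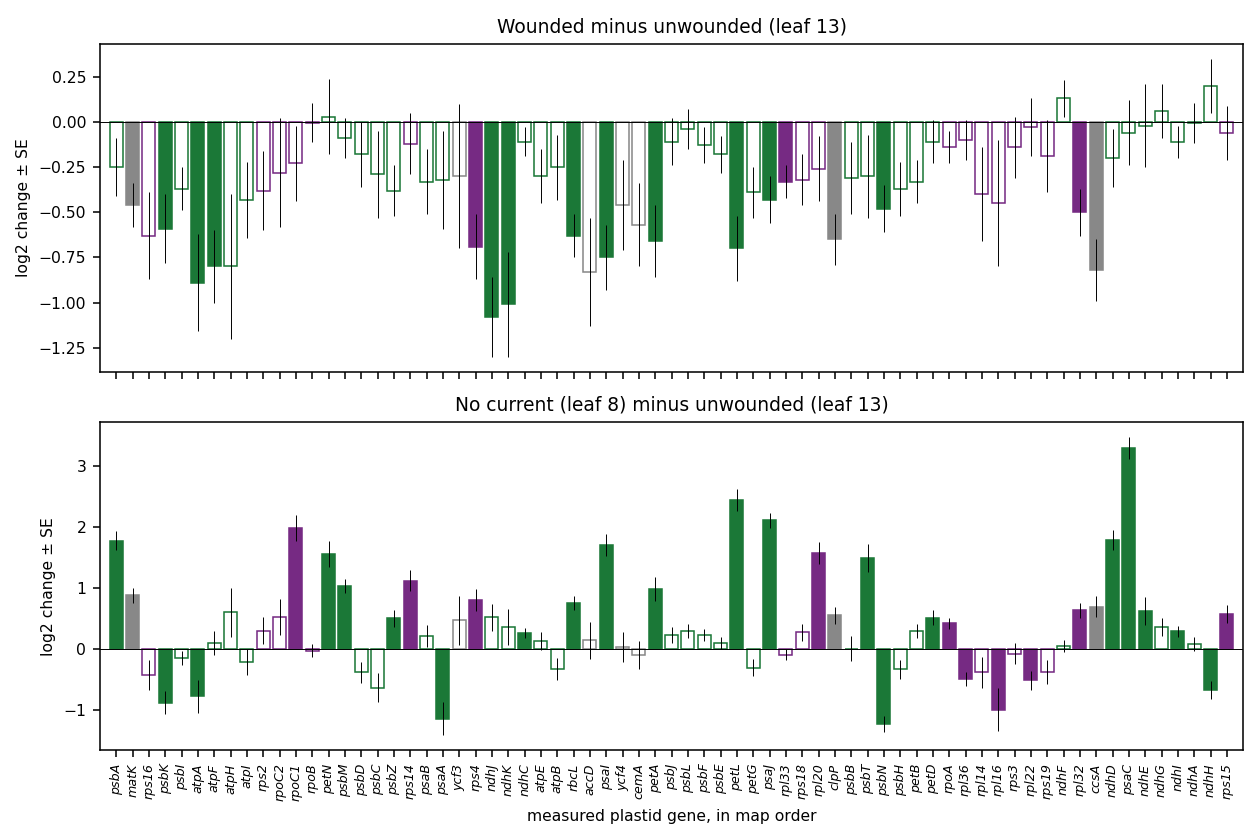
Log2 change ± SE of the 69 plastid genes in the order of the plastid map (equally spaced, not to scale), for wounded minus unwounded leaf 13 (upper panel) and wired leaf 8 without current minus unwounded leaf 13 (lower panel); the vertical axes differ. Filled bars passed the threshold, with green for photosynthesis genes, purple for rpo, rps and rpl genes and grey for the others. In the lower panel psaC has the tallest bar (3.30), and petL (2.44) stands between psbE (0.09) and petG (-0.31).

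Several measures outside the plastid moved with the same contrast. Of 11 mitochondrial genes, 6 were higher in wired leaf 8 and 0 lower, with a median of 0.42. The share that was higher is 54.5%, beside 37.7% of the plastid genes and 16.6% of all genes, and 16.2% of all genes were lower. The 25S ribosomal RNA probe set read 9.80 to 10.01 on the 6 leaf 13 arrays and 10.81 to 11.28 on the 6 leaf 8 arrays. The end-to-end difference in log2 signal was 1.18 to 1.59 against 2.03 to 2.45 for GAPDH. For ubiquitin it was 1.49 to 1.69 in unwounded and 1.88 to 1.95 in no-current leaves, and for actin 4.03 ± 0.18 (SD, n = 3) in unwounded and 4.51 ± 0.31 in no-current leaves. The part of these in the differences between the control leaves was not tested. The nuclear genes listed for photosystem and electron transport subunits, RCA again included, had a median of -0.13 over 8 genes, with 1 lower, PSBY (-0.38, adjusted p = 0.00177 in limma). Of 3 antenna genes, LHCB4.3 was lower by 0.80 (adjusted p = 5.76e-04 in limma) and LHCB4.1 by 0.23 (adjusted p = 0.0395 in limma). RPOTmp, a phage-type polymerase, stood at 3.38 ± 0.07 (SD, n = 3) in leaf 13 and 3.07 ± 0.18 in leaf 8, with a difference of -0.31 (adjusted p = 0.0360 in limma). All its arrays, at 2.88 to 3.45, lay below the median of 4.35 over all genes, where little signal stands above background. Sigma factors, polymerase-associated proteins and plastid RNA processing factors were listed as well, and none of them had a named probe set here.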

How the data were processed

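The authors deposited log2 RMA expression values for 22810 probe sets on 12 arrays. Per the submitters' processing notes the tool was Affymetrix Power Tools, with its version not given in the sources used here. That procedure subtracts background, equalises intensity distributions between arrays and summarises probes, so a change shared by most genes is removed. No label states the log base, and the values, 1.458 to 13.303, fit the log2 scale that RMA gives. They were used as deposited, with no filter.

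Of 22746 probe sets left after 64 controls, 13513 had 1 gene in the platform's probe-gene table. Several such probe sets of a gene (146 genes) were averaged. Of the resulting 13356 genes, 13286 matched to the RefSeq table (TAIR10.1) by identifier. This table served for names and gene order, not coordinates. Another 8 plastid probe sets carry 2 gene entries, which belong to 7 symbols, and were kept out of the members.

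Limma (version 3.58.1, R version 4.3.3) fitted 1 mean per group over all 12 arrays and moderated the variances by empirical Bayes (residual df 8, prior df 6.31), with Benjamini-Hochberg adjustment over all genes and a two-sided threshold of 0.05. The fit was tested on simulated data. An exact permutation of 3 against 3 arrays cannot go below p = 0.1, so none was used. The number of arrays limits the precision. Lists of genes are described by counts and medians.

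The plastid genes and all lists were chosen with earlier results of these data known. Named genes were, per comparison, up to 10 past the threshold in each direction by size, the highest and lowest change and level in each gene group, and rbcL, psbA, accD and clpP, plus up to 3 passing members of each nuclear list. Alternatives covered scaling, the variance model, dim genes, probe sets fitted singly, the replicate number as a block, groups fitted alone and single arrays left out. Counts of signs without single arrays were chosen after seeing the data.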

Additional observations from a re-analysis of the deposited data

Results flagged for a closer look

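For 5 plastid genes the current response in leaf 8 and the wound response in leaf 13 differed by an interaction test in limma. The log2 differences, current minus wound, were 1.07 for petL, 1.02 for psaI, 1.00 for rbcL, 0.95 for ccsA and 0.94 for petG. Only rbcL passed in every alternative run. PsaI was lost in 10 of 20, petL in 9, ccsA in 8 and petG in 1 of 19, and the count was 1 without wounded replicate 3. Both petG and, in leaf 13, petL were read at low signal. The estimate was positive for 67 of 69 plastid genes, beside 7060 of all 13356 genes. The leaves compared also differ in position and in whether they were treated themselves, which cannot be told apart from the kind of treatment.

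A signal also appeared in a probe set outside the members. Rps7, a protein of the small ribosomal subunit whose gene is present in 2 copies, stood at 10.10 ± 0.05 (SD, n = 3) in unwounded and 9.35 ± 0.58 in wounded plants' leaf 13. The log2 change was -0.76 (SE 0.22, adjusted p = 0.0264 in limma over 22746 probe sets). The wide spread of the wounded arrays limits this value.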

How the results depend on the processing

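Of 1578 alternative values of the 98 gene results, 1404 kept direction and side of the threshold, 91 lost the call, 15 gained it and 68 turned sign, nearly all of the last among changes close to 0; the cause was not tested. Counts of genes called without single arrays ran from 4 to 14 for wounding, 0 to 5 for current, 1 to 9 for the difference and 29 to 35 for the control leaves. The current count was 0 under quantile normalization, without the dimmest 50% of genes (petG is then not tested), with the replicate block and with the groups fitted alone, and 2 with array weights, which also gave 9 for the difference. Medians without single arrays ran from -0.08 to 0.23 for expression genes after current, from 0.32 to 0.59 for photosynthesis genes in the difference, and from 0.07 to 0.31 for expression genes between the control leaves. The medians of both main classes kept their sign under quantile normalization and median centring in every comparison.

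With quantile normalization the log2 change became 0.002 for psaC, 0.05 for rpl22 and 0.02 for rps15 after wounding, 0.02 for psaJ after current, 0.001 for ndhH and -0.01 for psbJ in the difference, and 0.01 for rpoB between the control leaves. With median centring it became 0.01 for psbL, 0.01 for rpl22 and 0.04 for rpoB after wounding, and -0.02 for psbJ and -0.01 for rps14 in the difference. With array weights atpE after current became 0.06. Without single arrays, signs turned within these ranges. After wounding they were -0.09 to 0.06 for rpoB, -0.15 to 0.03 for rps15, -0.10 to 0.13 for petN, -0.15 to 0.03 for psaC, -0.13 to 0.10 for rpl22, -0.15 to 0.05 for psbL and -0.53 to 0.04 for ycf3. After current they were -0.16 to 0.10 for atpE, -0.19 to 0.07 for rps14, -0.14 to 0.46 for accD, -0.33 to 0.66 for atpH, -0.08 to 0.17 for clpP, -0.01 to 0.17 for petB, -0.12 to 0.04 for psaJ, -0.21 to 0.74 for rpl16 and -0.10 to 0.04 for ndhI. In the difference they were -0.17 to 0.12 for ndhH, -0.10 to 0.13 for psbJ, -0.10 to 0.22 for rps14, -0.08 to 0.27 for rpl22 and -0.26 to 0.70 for ycf3. Between the control leaves they were -0.09 to 0.42 for accD, -0.28 to 0.12 for cemA and -0.12 to 0.02 for rpoB.

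Same-numbered arrays did not stand out as pairs, but 3 arrays a group are too few to settle whether the numbers pair them. Deviations from group means of same-numbered arrays correlated at -0.11 to 0.11 over all genes, and 2 of 6 arrays of the wounding experiment and 1 of 6 of the current experiment correlated best with their own number. With the replicate block the counts were 17 for wounding, 0 for current, 5 for the difference and 34 for the control leaves. Signal over background limits the 6 dim genes, and a call at 3 arrays a group rests on the spread shared by all groups.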

Other observations

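The other 7 probe sets with 2 plastid gene entries were also read. After wounding, both rps12 probe sets had log2 changes of -0.76 and -0.71, but with SEs of 0.48 and 0.47, and neither passed the threshold (adjusted p = 0.370 and 0.396 in limma). Ycf1, a large gene needed for plant viability, had a change of -0.64 (adjusted p = 0.203 in limma), while rpl2, rpl23 and ycf2 had changes of -0.07, -0.09 and -0.05. None of the 8 probe sets passed for current against no current, where the changes ran from 0.02 for rpl2 to 0.24 for ycf1.

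Between the control leaves, rpl2 and rpl23, ribosomal proteins encoded next to each other, were both lower in wired leaf 8, by 0.41 (log2 difference -0.41, adjusted p = 0.0170 in limma) and by 1.02 (log2 difference -1.02, adjusted p = 1.89e-04 in limma). Ycf1 was lower too (-1.28, adjusted p = 0.00430 in limma). Rps7 and ycf2 were higher, by 0.73 (adjusted p = 0.0156 in limma) and 0.46 (adjusted p = 0.0139 in limma).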
